A study of Mus musculus with 8 samples.

Results

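The autophagy machinery was followed in sorted bone marrow cells of a CML mouse model through 39 genes, chosen by name as the parts of the pathway from the initiating kinase to the cargo receptors. All 39 were rows of the deposited table of 15576 genes, and all 39 passed the filter on low counts that left 11937 genes for testing. 4 CML and 4 CML-TKI libraries were compared by bulk RNA-seq. Every library came from C57BL/6 mice carrying BCR-ABL×SCL-tTA, a pair of transgenes in which the SCL-directed transactivator switches BCR-ABL on in stem and progenitor cells once tetracycline is withdrawn, so the untreated group carried the oncogene too. CML mice were untreated, and CML-TKI mice were given imatinib, a tyrosine kinase inhibitor, by gavage at 400 mg/kg every other day for 4 weeks according to the labels, whereas the study names this and a lower dose and gives the lower one for the treated mice of its stem cell analysis. Bone marrow cells were sorted as Lin-Sca1+cKit+Flt3-CD150-CD48+ according to the labels, while the study defines leukemic stem cells by the opposite CD150 and CD48 pattern, so the groups are called CML and CML-TKI cells here. Ages were not given, and whether each library came from its own animal was not stated, so p-values measure the spread between these libraries.

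Autophagy wraps part of the cytoplasm in a double-layered membrane, the autophagosome, and delivers it to the lysosome for breakdown. A kinase complex built on ULK1 starts the process, a lipid kinase complex built on Beclin 1 marks the membrane with PI3P, lipid carriers enlarge it, and a conjugation cascade couples small proteins of the LC3 and GABARAP families to it, where cargo receptors dock. Hematopoietic stem cells depend on the pathway to clear mitochondria and to remain quiescent, and it is known as a survival route of CML cells under kinase inhibition.

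Library totals lay between 4939644 and 8620101 counts in the CML group and between 1041552 and 5104268 in the CML-TKI group, with CML-TKI 3 the shallowest. The fourth CML column carries the number 5, which no title has, and is used as a CML library without a replicate number, called CML 5 here. The labelled stem cell identity was compared with markers of HSCs and of other blood lineages, although the labelled gate is lineage-negative (Lin-). The summed level of 10 HSC markers ran from 881 to 1192 CPM (counts scaled to library size, TMM-normalized) in CML libraries and from 28.2 to 352 in CML-TKI libraries. Of 11 granulocyte markers it ran from 163 to 272 and from 1462 to 8467 CPM, of 6 monocyte markers from 233 to 303 and from 1454 to 7503, of 6 megakaryocyte markers from 1269.8 to 1505 and from 50.5 to 535, and of 6 lymphoid markers from 0.386 to 1.92 and from 4.37 to 169. The sum of 7 erythroid markers ran from 140.1 to 238 CPM in CML libraries, and was 64.0, 61.7, 23913 and 457 CPM in CML-TKI 1 to 4, so that CML-TKI 3 stood apart. Nearly all of that value was from the globin genes Hba-a1 (19625 CPM) and Hbb-bt (4214 CPM). In the same library Klf1 (5.48 CPM), Car1 (4.38), Epor (1.10) and Gata1 (40.6) were below every CML library. CML-TKI 4 had more of these 4 than CML-TKI 3, at 64.3, 168.8, 28.9 and 44.2 CPM. The HSC and megakaryocyte sums were thus lower, and the granulocyte, monocyte and lymphoid sums higher, in each CML-TKI library than in any CML library. Of the HSC markers, Hoxb5 was at 0 counts in CML-TKI 2, 3 and 4, and Mecom, Procr and Fgd5 in CML-TKI 2 and 4, while none of these was at 0 in a CML library. In edgeR, 2 of the 9 HSC markers tested and 2 of 6 megakaryocyte markers were called lower, and 10 of 11 granulocyte and 6 of 6 monocyte markers higher. Of all genes tested, 3.93% were called lower and 6.29% higher. The part of these differences in the results for autophagy genes was not tested. In bulk libraries, fewer cells of a type and less RNA per cell cannot be told apart.

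After imatinib, 4 members were lower and 0 were higher (edgeR's quasi-likelihood test over all genes, Benjamini-Hochberg adjusted p under 0.05). The lower members were Gabarapl1, Wdr45, Ulk1 and Map1lc3b. Together they are 10.3% of the members, beside 10.2% of all genes tested that were called in either direction, so the share called was that of genes at large. Of all genes, 3.93% were called lower and 6.29% higher. DESeq2 called 4 members higher and 6 lower (25.6% of the members beside 18.1% of all genes), and limma-voom 2 higher and 5 lower (17.9% beside 21.3%). At an unadjusted p under 0.05 in edgeR there were 11 members, 28.2% of them, beside 25.7% of all genes tested. The groups did not overlap for 13 members, of which 8 were lower and 5 higher in every CML-TKI library, which is 33.3% of the members beside 23.4% of all genes (13.1% lower and 10.3% higher). The median log2 fold change (CML-TKI over CML) of the 39 members was 0.13, with 23 above 0 and 16 below, beside a median of -0.00026 over all genes. The median size of the change, regardless of sign, was 0.34 for the members and 0.52 for all genes on the log2 scale. The plot of fold changes by role shows that the 4 calls came from the initiation complex, the membrane genes and the LC3 and GABARAP genes.

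**Figure D1:**
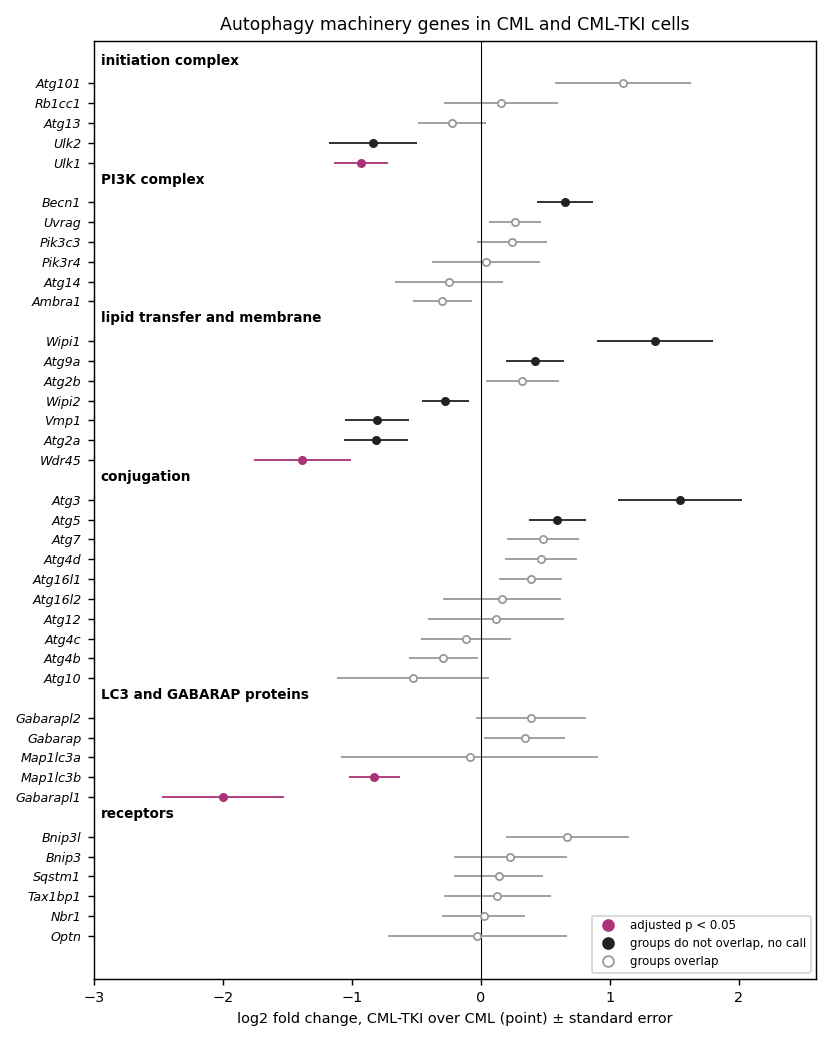
Log2 fold change of CML-TKI over CML for the 39 autophagy genes by role, each point with its standard error from the edgeR fit (4 libraries a group). The 4 coloured points, Gabarapl1, Wdr45, Ulk1 and Map1lc3b, passed the threshold and all lie below 0, filled black points are members whose groups did not overlap without a call, and open points are members whose groups overlapped.

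The small ubiquitin-like proteins of the LC3 and GABARAP families are joined to the lipid of the growing membrane and are the anchor for cargo receptors. Of their 5 genes 2 fell, which is 40%, beside 3.93% of all genes called lower and 10.2% called in either direction. Gabarapl1, on chromosome 6 of GRCm38 from 129533192 to 129542331, encodes a GABARAP-like protein that acts late in autophagosome maturation. It had 134, 108, 133 and 179 CPM in CML 1, 2, 3 and 5 and 73.9, 22.6, 12.1 and 25.8 CPM in CML-TKI 1 to 4. Every CML-TKI library lay below every CML library, with CML-TKI 1 nearest to them. The means were 138.6 ± 29.7 and 33.6 ± 27.5 CPM (SD, n = 4 each), a 4.00-fold lower level (log2 fold change -2.00, SE, the standard error, 0.47, edgeR adjusted p = 0.0269). This was the largest change among the members in either direction, and without CML-TKI 1 it was -2.73 (adjusted p = 0.0005205). Without CML 1, 2, 3 or 5 or CML-TKI 2 or 4 the call was lost (edgeR adjusted p from 0.055 to 0.0761).

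Map1lc3b, on chromosome 8 from 121590438 to 121598760, encodes LC3B, the protein most often used to count autophagosomes. Its level was 145, 136, 153 and 177 CPM in CML 1, 2, 3 and 5 and 86.6, 104, 72.3 and 81.4 CPM in CML-TKI 1 to 4. The groups were apart and the spread in each was narrow. The level was 1.77-fold lower in CML-TKI cells, the means being 152.9 ± 17.8 and 85.97 ± 13.1 CPM (SD, n = 4 each; log2 fold change -0.83, SE 0.20, edgeR adjusted p = 0.0280).

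The other 3 genes of the family did not pass the test. Gabarap had 41.0, 27.8, 32.7 and 63.1 CPM in the CML libraries and 62.3, 62.9, 37.3 and 44.5 CPM in CML-TKI 1 to 4 (log2 fold change 0.34, adjusted p = 0.55), with the groups overlapping. Gabarapl2 had 20.6, 23.0, 24.2 and 34.8 CPM in the CML libraries and 22.6, 25.4, 69.0 and 20.6 CPM in CML-TKI 1 to 4 (log2 fold change 0.39, adjusted p = 0.615), where CML-TKI 3 alone was high. Map1lc3a, the LC3A gene, was the lowest of the family, from 3.40 to 10.3 CPM across CML and from 0 to 13.7 across CML-TKI (log2 fold change -0.087, SE 0.995). It had 0 counts in CML-TKI 2, where 3 counts correspond to 0.995 CPM of the library's total, a limit that covers counting error only.

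Levels per kilobase of exon (GENCODE exon union) give the order within the family. In CML cells Gabarapl1 led with 76.1 ± 16.3 CPM per kb (SD, n = 4), followed by Gabarap at 30.4 ± 11.6 and Map1lc3b at 29.5 ± 3.43, which did not differ beyond their spread, then Gabarapl2 at 15.3 ± 3.75 and Map1lc3a at 5.08 ± 2.86. In CML-TKI cells the highest mean was that of Gabarap at 38.3 ± 9.54 CPM per kb, whose spread met that of Gabarapl2 at 20.5 ± 13.8. Gabarapl1 at 18.5 ± 15.1 and Map1lc3b at 16.6 ± 2.53 lay within the spread of Gabarapl2, and Map1lc3a was lowest at 4.63 ± 5.32. Among the counts of these 5 genes, the share of Gabarapl1 ran from 36.2% to 38.98% across CML and was 28.5%, 10.6%, 6.21% and 14.6% in CML-TKI 1 to 4. The share of Gabarap ran from 9.30% to 13.6% across CML and from 19.2% to 29.3% across CML-TKI, also without overlap. That of Gabarapl2 ran from 5.99% to 7.68% and from 8.72% to 35.6%, apart as well. The share of Map1lc3b overlapped, from 38.1% to 45.5% and from 33.4% to 48.3%. Shares are parts of 1 total, so a smaller share of Gabarapl1 leaves more for the others, and the CPM of Gabarap and Gabarapl2 overlapped between the groups. The plot of the 5 shares by library shows the narrow makeup of the CML libraries and the wider one of the CML-TKI libraries. RefSeq lists 8 pseudogenes under the Map1lc3 name and 6 under the Gabarapl2 name, and how reads shared with such copies were counted is not stated, so the levels of these genes are uncertain to that extent. An exon of Gabarapl1 overlaps an antisense gene, 1700101I11Rik, by 377 bases, and whether reads were counted by strand is not stated.

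**Figure D2:**
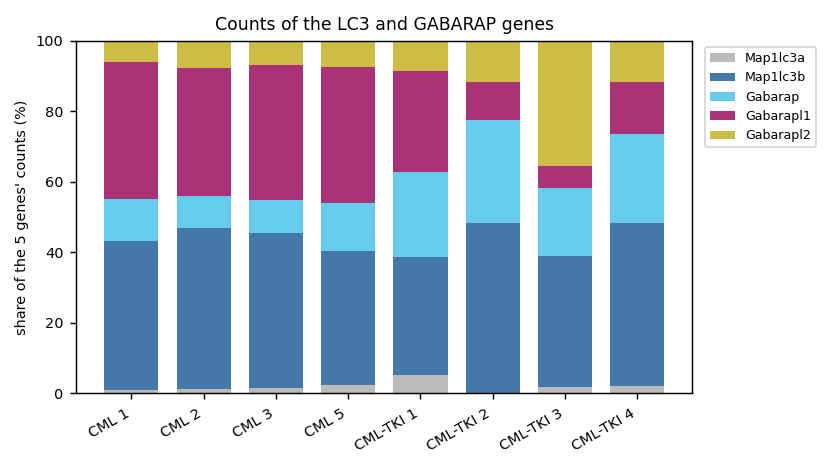
Share of each LC3 and GABARAP gene among the summed counts of the 5 genes in each library, as stacked bars in percent. Gabarapl1 takes from 36.2% to 38.98% across the 4 CML libraries and from 6.21% to 28.5% across CML-TKI. The shares of Gabarap and of Gabarapl2 are larger in each CML-TKI library than in any CML library.

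In the initiation complex, which senses nutrient and energy state, Ulk1 fell. Ulk1, on chromosome 5 from 110784489 to 110810120, encodes the kinase that is inhibited by mTORC1 and activated by AMPK. It had 101, 101, 111 and 134 CPM in CML 1, 2, 3 and 5 and 58.9, 47.1, 66.9 and 62.2 CPM in CML-TKI 1 to 4. All CML-TKI libraries were below all CML libraries, at 1.91-fold lower (log2 fold change -0.93, SE 0.21, edgeR adjusted p = 0.0204). Its paralogue Ulk2 had 84.7, 89.4, 87.7 and 71.2 CPM and 52.8, 18.6, 52.6 and 63.0 CPM in the same order. The Ulk2 groups did not overlap either, but the spread in CML-TKI cells was wider and edgeR and DESeq2 made no call (log2 fold change -0.84, SE 0.34, edgeR adjusted p = 0.153), while limma-voom called it lower (adjusted p = 0.0309). Of the partners of the kinase, Atg13 had a log2 fold change of -0.23 and Rb1cc1, the large scaffold known as FIP200, of 0.16 (adjusted p = 0.638 and 0.864). Atg101, which stabilises ATG13, had 13.1, 11.4, 12.9 and 18.6 CPM in the CML libraries and 20.1, 21.1, 70.1 and 12.5 CPM in CML-TKI 1 to 4 (log2 fold change 1.10, adjusted p = 0.22). Its groups overlapped and CML-TKI 3 was far above the rest.

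No gene of the PI3K complex passed the threshold in edgeR or limma-voom. Becn1 alone had an unadjusted p under 0.05 and was called higher by DESeq2. Becn1, which encodes Beclin 1, the regulatory core of the complex, had 47.8, 45.0, 37.3 and 40.6 CPM in CML 1, 2, 3 and 5 and 77.7, 66.01, 71.2 and 53.9 CPM in CML-TKI 1 to 4. Each CML-TKI library was above each CML library, without a call (log2 fold change 0.65, SE 0.22, edgeR adjusted p = 0.0868). Its exons overlap those of Cntd1 on the opposite strand by up to 1297 bases. The catalytic subunit Pik3c3 and its partner Pik3r4 had log2 fold changes of 0.24 and 0.038, and the alternative partners that direct the complex, Atg14 to new membranes and Uvrag to endosomes, had -0.25 and 0.26, with adjusted p between 0.459 and 0.97. Ambra1, which links Beclin 1 to ULK1 and had the highest level per length of the group, had 100.5, 95.2, 99.3 and 101.7 CPM in the CML libraries and 71.8, 71.9, 116 and 65.3 CPM in CML-TKI 1 to 4 (log2 fold change -0.30, adjusted p = 0.448). CML-TKI 3 lay above every CML library while the other 3 CML-TKI libraries lay below.

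The genes that enlarge the membrane were split in direction, and for 6 of these 7 (85.7%, beside 23.4% of all genes) the groups did not overlap. Wdr45, on the X chromosome from 7721987 to 7728201, encodes WIPI4, a PI3P-binding propeller protein that partners ATG2. It had 23.2, 23.4, 31.9 and 38.9 CPM in CML 1, 2, 3 and 5 and 13.7, 9.92, 5.48 and 14.6 CPM in CML-TKI 1 to 4. Every CML-TKI library was lower, and the fall was 2.61-fold (log2 fold change -1.39, SE 0.38, edgeR adjusted p = 0.0449), just past the threshold, and limma-voom made no call. The lowest value, in CML-TKI 3, rested on 5 counts. An exon of Wdr45 overlaps one of Gm45208 on the same strand by 209 bases.

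The lipid carrier Atg2a, which moves phospholipids from the endoplasmic reticulum into the growing membrane, had 83.8, 87.0, 99.7 and 114 CPM in the CML libraries and 60.4, 37.2, 48.2 and 72.3 CPM in CML-TKI 1 to 4 (log2 fold change -0.81, adjusted p = 0.0693). Vmp1, a scramblase of the endoplasmic reticulum and the gene of this role with the highest level per length, had 193, 176, 160 and 226 CPM and 117, 145, 97.5 and 71.8 CPM in the same order (log2 fold change -0.80, adjusted p = 0.0718). For both genes all CML-TKI libraries were below all CML libraries, with no call by edgeR, while DESeq2 called both lower and limma-voom Vmp1. The microRNA gene Mir21a lies in an exon of Vmp1 on the same strand, so counts of Vmp1 can include its precursor.

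Wipi2, the PI3P reader that recruits the conjugation machinery, had 86.9, 83.6, 102 and 90.5 CPM in CML 1, 2, 3 and 5 and 80.2, 68.5, 78.9 and 72.1 CPM in CML-TKI 1 to 4 (log2 fold change -0.28, adjusted p = 0.379). On the other side, Wipi1, a related reader, had 4.63, 5.79, 4.06 and 5.09 CPM in the CML libraries and 15.8, 7.44, 12.1 and 14.6 CPM in CML-TKI 1 to 4 (log2 fold change 1.35, SE 0.45, edgeR adjusted p = 0.0873), and DESeq2 and limma-voom called it higher (0.0187 and 0.0314). Atg9a, the scramblase on the vesicles that seed the membrane, had 32.8, 42.3, 35.2 and 47.02 CPM and 50.1, 57.3, 55.9 and 47.09 CPM in the same order (log2 fold change 0.42, adjusted p = 0.279). Its exons overlap those of Gm29253 on the same strand by up to 1072 bases. Atg2b, the second lipid carrier, had a log2 fold change of 0.32 (adjusted p = 0.524), with overlapping groups. The plot of levels by library shows the width of these gaps, which is small for Atg9a and Wipi2 and larger for Wipi1 and Wdr45.

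**Figure D3:**
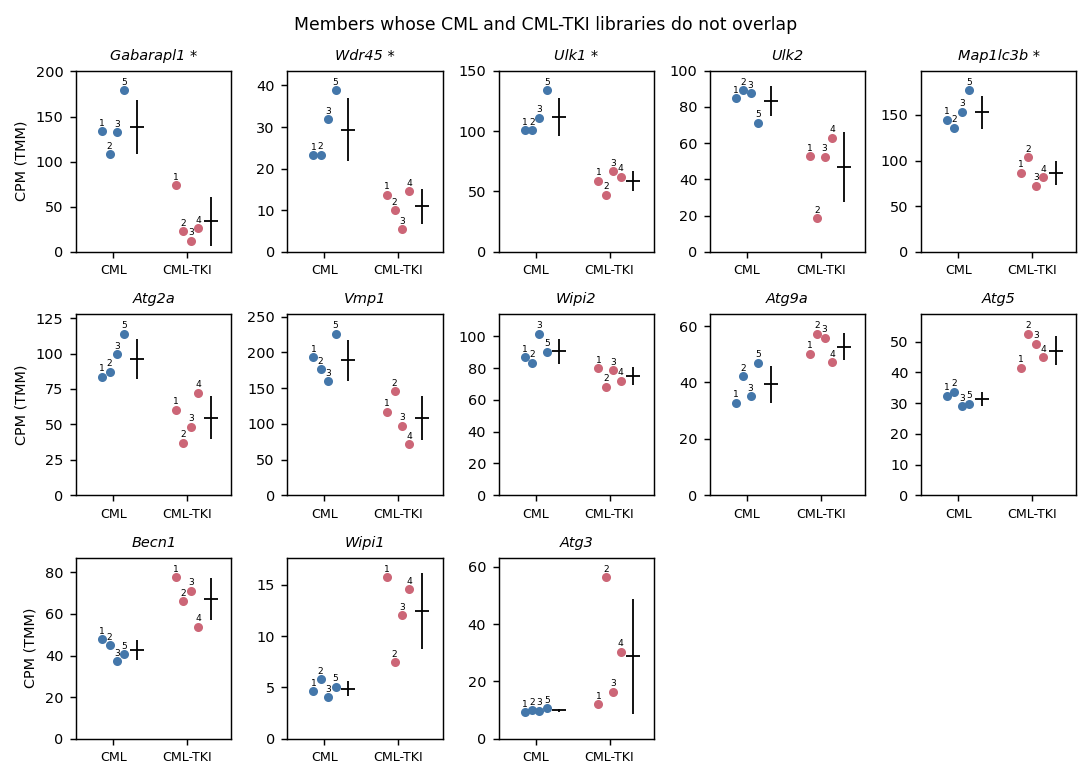
CPM (TMM-normalized, linear axis from 0) in each of the 4 CML and 4 CML-TKI libraries for the 13 members whose groups did not overlap, numbered by library, with the mean and SD of each group beside the points. Asterisks mark the 4 members with an adjusted p under 0.05, and the panels run from the largest fall (Gabarapl1) to the largest positive change (Atg3).

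In the conjugation cascade no gene passed the threshold in edgeR, and 7 of the 10 genes had a positive fold change. Atg3 and Atg5 had an unadjusted p under 0.05 and were called higher by DESeq2, and limma-voom called Atg3. Atg3, the E2-like enzyme that places LC3 on lipid, had 9.26, 10.04, 9.86 and 10.6 CPM in CML 1, 2, 3 and 5 and 11.97, 56.4, 16.4 and 30.4 CPM in CML-TKI 1 to 4. The CML libraries were nearly level, whereas the CML-TKI libraries ranged widely above them and CML-TKI 1 was closest. No call was made (2.92-fold higher, log2 fold change 1.54, SE 0.48, edgeR adjusted p = 0.0725), and without CML-TKI 1 the adjusted p was 0.0135, while without CML-TKI 2 the log2 fold change was 0.98 (adjusted p = 0.185). Atg5, which joins ATG12 to form the ligase part of the cascade and had the highest level per length of the role, had 32.4, 33.8, 28.99 and 29.8 CPM and 41.6, 52.7, 49.3 and 45.0 CPM in the same order (log2 fold change 0.59, SE 0.22, edgeR adjusted p = 0.121). The groups of both genes did not overlap.

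The E1-like enzyme Atg7 and the membrane-targeting subunit Atg16l1 had log2 fold changes of 0.48 and 0.38 (adjusted p = 0.319 and 0.366). Atg12 (0.12), Atg16l2 (0.16) and the E2-like Atg10 (-0.53) had adjusted p between 0.62 and 0.916. Of the ATG4 proteases, which trim LC3 before conjugation and release it afterwards, Atg4b had -0.29, Atg4c -0.12 and Atg4d 0.46 (adjusted p = 0.537, 0.871 and 0.335). The lowest of these by level were Atg10, at 4.64 ± 1.29 CPM in CML and 3.29 ± 1.22 CPM in CML-TKI cells (SD, n = 4 each), and Atg16l2 at 7.99 ± 2.04 and 8.96 ± 2.71 CPM.

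None of the 6 cargo receptors passed the threshold in edgeR, DESeq2 or limma-voom, no receptor's groups were apart, and 0 had an unadjusted p under 0.05 in edgeR. Receptors bind cargo on one side and LC3 or GABARAP on the other. Tax1bp1, a ubiquitin-binding receptor, had 177, 180.3, 168 and 75.1 CPM in CML 1, 2, 3 and 5 and 129, 222, 64.7 and 235 CPM in CML-TKI 1 to 4 (log2 fold change 0.13, adjusted p = 0.885 from edgeR). Its sign was not settled, since the fold change was -0.11 without CML-TKI 4 or without CML 5. The classical receptor Sqstm1, known as p62, lay between 77.0 and 126 CPM in the CML libraries and had 189, 75.3, 76.7 and 73.6 CPM in CML-TKI 1 to 4 (log2 fold change 0.14, adjusted p = 0.847). CML-TKI 1 alone was high. Nbr1 (0.020) and Optn (-0.030) were close to level by fold change, with SE of 0.32 and 0.69.

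Bnip3l, which encodes NIX, the mitophagy receptor that clears mitochondria from maturing red cells, had 133, 126, 130.4 and 71.5 CPM in the CML libraries and 91.0, 96.7, 409.9 and 144 CPM in CML-TKI 1 to 4. The log2 fold change was 0.67 (SE 0.48, edgeR adjusted p = 0.416) and -0.048 without CML-TKI 3. Its paralogue Bnip3, a target of hypoxia signalling, had 16.9 ± 1.84 CPM in CML and 19.4 ± 10.5 CPM in CML-TKI cells (SD, n = 4 each), with 6 counts in CML-TKI 3 (log2 fold change 0.23, adjusted p = 0.789). CML-TKI 3 was also the library with the high Gabarapl2, Atg101 and Ambra1 levels and with the globin-led sum of 23913 CPM of erythroid markers, and whether these levels go with erythroid cells was not tested. Gabarapl2 had a log2 fold change of -0.15 without this library and Atg101 of 0.36 (adjusted p = 0.761 and 0.52). The plot of these genes beside the erythroid markers shows CML-TKI 3 at the top of each panel.

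**Figure D4:**
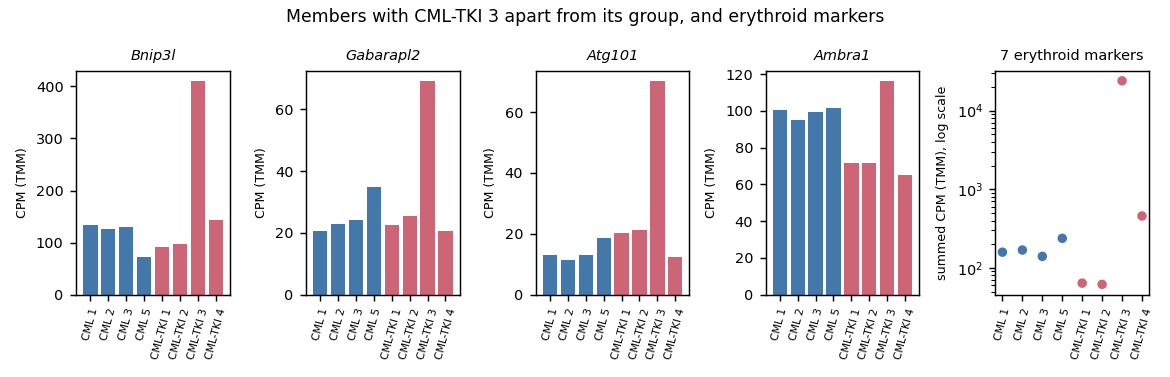
Levels in CPM (bars from 0) of Bnip3l, Gabarapl2, Atg101 and Ambra1 and, on a log axis, the summed CPM of 7 erythroid markers (points) in each library, CML in blue and CML-TKI in red. CML-TKI 3 is the highest library in each panel, with 409.9 CPM of Bnip3l and 23913 CPM of erythroid markers, nearly all of it Hba-a1 and Hbb-bt.

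Ratios between paralogous genes within a library do not depend on how libraries are scaled, and 7 pairs were compared by a two-sided exact permutation test, for which 70 relabelings allow a smallest p of 0.0286. For 3 pairs the groups did not overlap. The log2 ratio of Gabarapl1 to Gabarapl2 was 2.44 ± 0.20 in CML and -0.15 ± 1.73 in CML-TKI cells (SD, n = 4 each; difference -2.59, exact p = 0.0286, adjusted over the 7 pairs p = 0.0667), with CML-TKI 1 at 1.70 and CML-TKI 3 at -2.47. The log2 ratio of Wipi1 to Wipi2 was -4.20 ± 0.32 and -2.62 ± 0.41 (difference 1.58, exact p = 0.0286, adjusted p = 0.0667). That of Atg2a to Atg2b was -0.23 ± 0.47 and -1.36 ± 0.61 (difference -1.13, exact p = 0.0286, adjusted p = 0.0667). With 3 of 7 pairs at the smallest p, the adjusted p cannot be lower than 0.0667, so this test could not pass 0.05 for these pairs.

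The log2 ratio of Ulk1 to Ulk2 was 0.42 ± 0.34 in CML and 0.45 ± 0.60 in CML-TKI cells (difference 0.036, exact p = 0.914). The mean levels of both genes were lower, but the ratio varied between libraries, with CML-TKI 2 at 1.33 and CML 5 at 0.91. The differences of Atg16l2 to Atg16l1 (-0.21), Map1lc3a to Map1lc3b (-0.31) and Bnip3 to Bnip3l (-0.42) had exact p between 0.629 and 0.943, with CML-TKI 2 at -9.39 for Map1lc3a to Map1lc3b because Map1lc3a had no counts there. The plot of the ratios by library shows the pairs whose groups are apart.

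**Figure D5:**
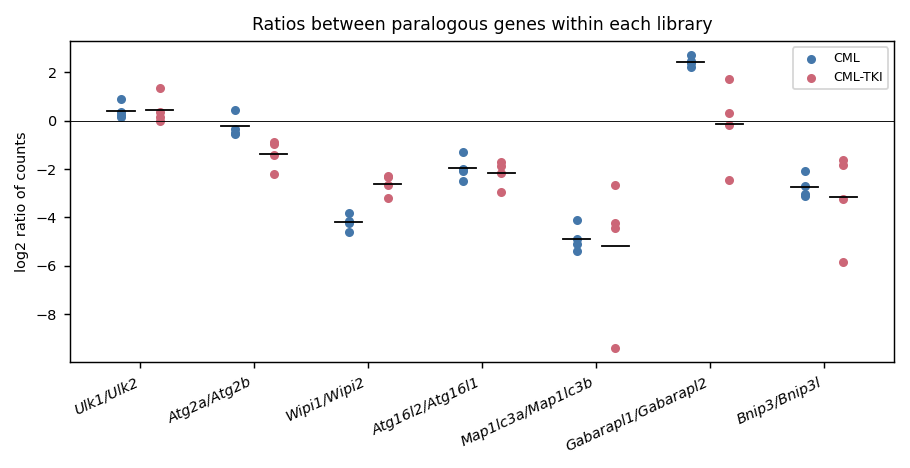
Log2 ratio of the counts of 7 pairs of paralogous genes in each library, CML in blue and CML-TKI in red, with black lines at the group means (4 libraries a group). The groups are apart for Atg2a/Atg2b, Wipi1/Wipi2 and Gabarapl1/Gabarapl2 and overlap for the other pairs.

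Spread between libraries was larger after imatinib. The coefficient of variation of CPM had a median over the members of 16.6% in the 4 CML libraries and 35.9% in the 4 CML-TKI libraries, and it was larger in CML-TKI cells for 31 of 39 members. Among CML 1 to 3 alone the median was 8.11%. Genes at large showed the same, with a common biological coefficient of variation over all genes tested (edgeR) of 28.1% in CML, 68.6% in CML-TKI and 11% in CML 1 to 3, so the wider spread is not particular to the members. Of the 13 members whose groups were apart, the CML-TKI library nearest to the CML mean was CML-TKI 1 for 4, CML-TKI 2 for 3, CML-TKI 3 for 1 and CML-TKI 4 for 5, so no single library was closest throughout.

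The calls rest on few libraries. Ulk1 lost its call without CML 1, CML 2 or CML 3 (adjusted p = 0.0614, 0.055 and 0.0657). Map1lc3b lost it without CML 1, CML 2, CML 3 or CML-TKI 4 (0.088, 0.0672, 0.0851 and 0.0671). Gabarapl1 lost it without CML 1, 2, 3 or 5 or CML-TKI 2 or 4 (0.0695, 0.055, 0.0638, 0.0761, 0.0705 and 0.069). Wdr45 kept it only without CML-TKI 1 (0.0283), and had adjusted p of 0.0987, 0.0918, 0.13 and 0.107 without CML 1, 2, 3 and 5 and of 0.0903, 0.0501 and 0.0538 without CML-TKI 2, 3 and 4. With all libraries, it also lost the call without the filter on low counts (0.0565) and with counts thinned to the smallest total (0.0598). With CML 1 to 3 summed to 1 library, all 4 lost their calls (adjusted p = 0.165 for Gabarapl1, 0.2265 for Map1lc3b, 0.1801 for Ulk1 and 0.267 for Wdr45). The direction of these 4 members was the same in every one of these fits, and the log2 fold change of Ulk1 without CML 1, 2 or 3 was between -0.99 and -0.94.

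The promoters of the 4 lower members, and of Atg3 and Atg5, the conjugation genes whose CML-TKI libraries were all higher, are shown as the 250 bases before the annotated start (RefSeq, GRCm38.p6), in the direction of the gene. Capitals mark matches to letters searched on both strands. These were CACGTG, the core bound by TFEB and TFE3, GTAAACA or ATAAACA, the FOXO motif, TTCCNGGAA, the STAT motif, and TGACGTCA, the cAMP response motif. ATAAACA was added after the Gabarapl1 promoter had been read. The windows are chr5:110810082-110810331 on the minus strand for Ulk1, and on the plus strand chrX:7722677-7722926 for Wdr45, chr8:121590188-121590437 for Map1lc3b, chr6:129532942-129533191 for Gabarapl1, chr16:45158579-45158828 for Atg3 and chr10:44268089-44268338 for Atg5. The Wdr45 window lies wholly inside the annotated gene, and those of Ulk1 and Atg5 run into it.
Gabarapl1: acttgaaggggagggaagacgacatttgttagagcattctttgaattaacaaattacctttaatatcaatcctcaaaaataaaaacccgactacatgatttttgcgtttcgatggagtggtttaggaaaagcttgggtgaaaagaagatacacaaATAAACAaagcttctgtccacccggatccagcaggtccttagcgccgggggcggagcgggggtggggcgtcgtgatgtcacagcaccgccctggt
Map1lc3b: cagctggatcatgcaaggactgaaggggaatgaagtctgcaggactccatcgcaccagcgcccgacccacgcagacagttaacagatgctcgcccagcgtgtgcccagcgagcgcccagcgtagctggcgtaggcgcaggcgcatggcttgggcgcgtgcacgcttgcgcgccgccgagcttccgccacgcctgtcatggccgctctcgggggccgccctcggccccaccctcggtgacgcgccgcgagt
Ulk1: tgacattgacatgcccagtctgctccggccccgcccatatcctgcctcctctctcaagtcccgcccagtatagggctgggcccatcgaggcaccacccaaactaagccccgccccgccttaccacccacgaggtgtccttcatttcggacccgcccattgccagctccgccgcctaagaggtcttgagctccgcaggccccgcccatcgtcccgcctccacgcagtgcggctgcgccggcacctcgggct
Wdr45: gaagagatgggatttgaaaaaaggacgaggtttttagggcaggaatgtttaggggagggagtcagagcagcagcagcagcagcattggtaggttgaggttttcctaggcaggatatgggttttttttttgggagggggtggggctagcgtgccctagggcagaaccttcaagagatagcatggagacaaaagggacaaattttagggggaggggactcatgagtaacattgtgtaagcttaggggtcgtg
Atg3: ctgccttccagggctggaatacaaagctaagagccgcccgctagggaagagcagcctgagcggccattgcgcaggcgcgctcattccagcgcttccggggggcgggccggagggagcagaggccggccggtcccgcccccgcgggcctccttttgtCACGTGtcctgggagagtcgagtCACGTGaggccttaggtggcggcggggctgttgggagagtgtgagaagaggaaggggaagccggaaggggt
Atg5: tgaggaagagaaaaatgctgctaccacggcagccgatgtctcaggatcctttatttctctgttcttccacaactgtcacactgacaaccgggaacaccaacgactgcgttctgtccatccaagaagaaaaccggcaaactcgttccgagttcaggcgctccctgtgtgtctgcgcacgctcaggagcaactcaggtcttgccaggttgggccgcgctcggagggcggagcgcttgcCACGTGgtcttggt

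Of the 4 lower members, Gabarapl1 held ATAAACA, starting 95 bases before its start. As this form was added after the Gabarapl1 promoter had been read, the match was fixed in advance and sets this gene apart from no other. The other 3 windows held no match to the letters searched. Atg3 held CACGTG at 94 and 71 bases and Atg5 at 14 bases before the start used, which for Atg5 is inside the annotated gene. In the table, 32 members had a promoter, with 37 starts in all. CACGTG was in those of 4 members, Atg3, Atg5, Atg7 and Bnip3, which is 10.8% of the members' promoters and 6.02% of all 32851 promoters of this length. The FOXO motif, with the form added after that reading, was in 5.41% of the members' promoters (Gabarapl1 and Ambra1) and 7.1% of all. The STAT motif was in 1 member, Nbr1 (0.913% of all promoters), and the cAMP response motif in 1, Atg16l2 (1.55% of all). The promoters of Map1lc3b and Ulk1 were rich in G and C, at 69.6% and 67.2%, and those of Gabarapl1 and Wdr45 had 46.8% and 49.6%, beside medians of 59.6% over the members' promoters and 52.4% over all promoters. A match is a run of letters and not a measured site.

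Of 78 further genes of the pathway, in lists of regulators, fusion proteins and other receptors, 75 were tested, and 3 were higher and 3 lower after imatinib, 8% of those tested beside 10.2% of all genes. Their median log2 fold change was 0.11. The genes for fusion with the lysosome held 3 of the 6 calls, 18.8% of the 16 tested. Lamp1 and Lamp2, the main glycoproteins of the lysosomal membrane, were 3.01-fold and 2.50-fold higher (log2 fold changes 1.59 and 1.32, adjusted p = 0.00469 and 0.0241 from edgeR). Lamp1 had 189, 173, 184 and 181 CPM in CML 1, 2, 3 and 5 and 358, 762, 618 and 447 CPM in CML-TKI 1 to 4, and the groups of both genes were apart. Vamp8, a SNARE of the autophagosome and lysosome fusion step, was 2.81-fold lower, with 109, 110.0, 105 and 196 CPM and 36.5, 46.8, 65.8 and 38.8 CPM in the same order (log2 fold change -1.49, adjusted p = 0.0119). The other 13 genes of this list, among them the Stx17 and Snap29 SNAREs and the HOPS tethering genes, were not called.

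Among nutrient and energy signalling genes edgeR called 1 of 26 (3.85%), DESeq2 2 and limma-voom 3. Of all genes these tools called 10.2%, 18.1% and 21.3%, so the list was below the share of genes at large. Sesn1, which encodes Sestrin 1, a leucine-sensing inhibitor of mTORC1, had 79.1, 79.5, 91.8 and 81.9 CPM in the CML libraries and 35.3, 15.5, 18.6 and 33.0 CPM in CML-TKI 1 to 4, 3.20-fold lower (log2 fold change -1.68, adjusted p = 0.00826 from edgeR). Mtor itself had a log2 fold change of 0.056 (adjusted p = 0.94), and Prkaa1, a catalytic subunit of AMPK, 0.90 (adjusted p = 0.0551), with groups that did not overlap and a call by both DESeq2 and limma-voom. The third gene called by limma-voom was Prkaa2, the other AMPK catalytic subunit, as lower. Pink1, the kinase that tags damaged mitochondria, was the only one of 14 other mitophagy and ER-phagy genes called by edgeR (7.14%, beside 10.2% of all genes). It was 2.04-fold lower (log2 fold change -1.03, edgeR adjusted p = 0.033). DESeq2 called Pink1 and Bcl2l13 lower, while limma-voom called Rtn3 higher and did not call Pink1 (adjusted p = 0.0568). In the list of other core genes, Trp53inp2, which helps recruit LC3 to membranes, was 6.5-fold higher (log2 fold change 2.70, SE 0.74, edgeR adjusted p = 0.0461), with 1.36, 2.70, 3.48 and 5.91 CPM in the CML libraries and 40.1, 31.6, 10.96 and 4.42 CPM in CML-TKI 1 to 4, so that its groups overlapped.

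None of 8 transcription factors of autophagy genes passed the threshold in edgeR, while 3, Foxo3, Foxo4 and Hif1a, had an unadjusted p under 0.05 (37.5%, beside 25.7% of all genes). DESeq2 called these 3, and limma-voom Foxo3 and Hif1a. Foxo3 had 171, 162, 165 and 193 CPM in the CML libraries and 93.6, 84.9, 76.7 and 145 CPM in CML-TKI 1 to 4 (log2 fold change -0.78, adjusted p = 0.0649 from edgeR). Foxo4 was also below every CML library in each CML-TKI library and Hif1a above (log2 fold changes -0.71 and 0.97, adjusted p = 0.0765 and 0.0643). Tfeb, Tfe3 and Mitf had log2 fold changes of 0.58, 0.87 and 0.22 with adjusted p between 0.224 and 0.862. With single libraries left out, Lamp1, Vamp8 and Sesn1 kept their calls in all 8 fits, but lost them with CML 1 to 3 summed to 1 library (adjusted p = 0.13, 0.0823 and 0.131). In the same 8 fits Lamp2 lost its call without CML 1, 2, 3 or 5 or CML-TKI 2 or 3 (adjusted p up to 0.0735), Pink1 without CML 1, 2, 3 or 5 or CML-TKI 2 (up to 0.0975) and Trp53inp2 without CML 1, 2, 3 or 5 or CML-TKI 1 or 2 (up to 0.132). With all libraries, Trp53inp2 also lost its call without the filter on low counts (0.0583) and when scaled by total counts without Rn45s (0.0576).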

How the data were processed

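Paired-end reads were aligned by the authors to mm10 with STAR 2.6.1d and quantified to RefSeq transcripts in Partek Flow 8.0, per the submitters' processing notes and the study's methods. The deposited file gives 1 estimated count for each gene and library, not normalized by the authors. Such values need not be whole, and 8.32% to 22.1% of a library's values were not. 7 columns were matched to titles by group and number and 1 by group alone, and descriptions that repeat between samples were not used.

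Estimated counts were rounded. edgeR 4.0.16 (R 4.3.3) was run with TMM, filterByExpr (minimum count 10, total 15), robust quasi-likelihood tests and Benjamini-Hochberg adjustment over 11937 genes, at a threshold of 0.05, all 8 libraries in 1 fit without covariates. Standard errors are the log2 fold change over the square root of F. CPM is TMM-normalized, log2 CPM used a prior count of 2, and paralogue ratios added 0.5 counts. Members, lists and tests were chosen with earlier results of these data known. The code was tested on simulated data. Coordinates are RefSeq GRCm38.p6, the assembly of mm10, and lengths are GENCODE exon unions. Values in every library were given for members that were called, whose groups did not overlap or that had the highest mean level per length of their role over all libraries. Map1lc3a, Gabarap, Gabarapl2, Sqstm1, Bnip3l, Prkaa1, Prkaa2, Bcl2l13, Rtn3, Hif1a and the FOXO, TFEB, Tfe3, Mitf and Mtor genes were named after their values were seen. Alternatives were DESeq2 1.42.0, limma 3.58.1 voom with quality weights, other scaling and filters, thinning, libraries left out or summed, and a replicate block. Intervals and floors cover counting error only.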

Additional observations from a re-analysis of the deposited data

Results flagged for a closer look

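In 78 groups of 4 libraries (39 members in CML and in CML-TKI cells), 8 had 1 library whose gap to the nearest of the others exceeded Dixon's 95% critical value, as a share of the group's range, where chance flags about 1 in 20 groups (3.9 here). CML-TKI 3 stood above the other CML-TKI libraries for Bnip3l (409.9 CPM against 91.0 to 144), Gabarapl2 (69.0 CPM against 20.6 to 25.4), Atg101 (70.1 CPM against 12.5 to 21.1) and Ambra1 (116.2 CPM against 65.3 to 71.9). CML-TKI 1 stood above its group for Sqstm1 (189.4 CPM against 73.6 to 76.7). CML 5 stood below the other CML libraries for Atg2b (83.0 CPM against 120.1 to 126.6), Tax1bp1 (75.1 CPM against 168.3 to 180.3) and Bnip3l (71.5 CPM against 126.4 to 132.8), and is also the library with the largest share of counts in the ribosomal RNA gene Rn45s, 38.3%.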

How the results depend on the processing

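The number of members called lower, 4 with edgeR, was 6 with DESeq2, 5 with limma-voom and with total counts without Rn45s, 0 with CML 1 to 3 summed to 1 library, and between 0 and 4 with 1 library left out. Members called higher numbered 4 with DESeq2, 2 with limma-voom, 1 when genes under a mean log2 CPM of 3 were dropped, and between 0 and 1 with 1 library left out. Over all genes, 2157 were called with DESeq2, 2544 with limma-voom, 122 with CML 1 to 3 summed, and between 505 and 2504 with 1 library left out, where leaving out CML-TKI 1 gave the highest count and CML 1 the lowest. The members' median log2 fold change was -0.055 with limma-voom (-0.114 over all genes), 0.0038 with total counts without Rn45s, a scaling that moved the median of all genes to -0.14, and between 0.032 and 0.176 with 1 library left out. With the replicate number as a block on the 6 libraries numbered 1 to 3, 193 genes and 0 members were called and the members' median was -0.16, and the same 6 libraries without the block gave 589 genes, 0 members and a median of 0.012. The numbers share no stated origin, and the deviations of same-numbered libraries correlated at -0.0224, 0.152 and 0.0908, so the block was not taken as a pairing. The sign of Tax1bp1 turned with limma-voom (-0.055), with the block (-0.48), in those 6 libraries without it (-0.31) and without CML-TKI 2 (-0.060), CML-TKI 4 (-0.107) or CML 5 (-0.106), and those of Bnip3l (-0.048) and Gabarapl2 (-0.15) turned without CML-TKI 3. With 1 library left out, the 3 genes ran from -0.107 to 0.392, from -0.048 to 0.890 and from -0.15 to 0.566. The causes were not tested. The members named by the rule and the called pathway genes otherwise kept their direction in each alternative run, and each paralogue difference moved by less than the SD pooled over both groups. The 3 pairs whose groups were apart kept their sign, with Gabarapl1 to Gabarapl2 between -3.21 and -1.82 with 1 library left out. The small differences of the other pairs could turn, Map1lc3a to Map1lc3b to 1.09 without CML-TKI 2 and to 0.28 with 2 counts added, and Bnip3 to Bnip3l to 0.48 without CML-TKI 3. With the block, Lamp1, Vamp8 and Sesn1 had adjusted p of 0.0694, 0.132 and 0.0836. Depth limits members with few counts, such as Map1lc3a, Atg10, Wdr45 and Optn, whose lowest libraries held 0, 4, 5 and 5.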
